A study of Mus musculus with 2 samples.

Results

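The insulin-like growth factor (IGF) binding proteins and the first components of insulin signalling were examined in western diet liver with and without hepatocyte Lpcat3. The 10 genes were Igfbp1 to Igfbp7, the insulin receptor gene Insr and the receptor substrate genes Irs1 and Irs2. Probe sets were taken wherever the platform annotation gave 1 of these symbols, which yielded 21 of the 45101 probe sets and 10 of the 18193 genes named on the arrays. Of these, 19 probe sets of 9 genes were measured, meaning that 1 or both arrays reached the floor described below. The exceptions were the single Irs2 probe set and 1 of 3 Insr probe sets.

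Liver RNA was compared on 2 Affymetrix Mouse Genome arrays, 1 for each genotype. The control was Lpcat3fl/fl, homozygous for the floxed allele and without Cre, and the other genotype was Lpcat3fl/fl Albumin-Cre (L-Lpcat3 KO), which carries the same floxed alleles and a Cre transgene driven by the albumin promoter. This promoter is active in hepatocytes, so Kupffer, endothelial and stellate cells of L-Lpcat3 KO liver keep the gene, and no Cre-only control was included. For each genotype, liver RNA of 5 male mice was combined before hybridization. The mice ate the western diet from 7 to 16 weeks of age, which is 9 weeks of feeding, and were fasted for 6 hr before collection.

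A pool is 1 sample, so no test between genotypes could be made and every difference below is a description of 2 arrays. The values are linear MAS5 signal intensities, which are compared below only between the arrays, for 1 probe set or for the same sum over a list, since the signals of different probe sets do not rank their transcripts. Where a gene had several probe sets, that of highest mean signal stands for it in every count over genes. Values below the median of all values, 86.6, were raised to that floor, and a ratio with 1 side below it is given as a lower bound. Genes and probe sets were called at a 2-fold difference. Probe sets of the same gene had log2 ratios that spread with an SD of 0.29, pooled over 4476 genes. It serves as a scale for measurement error and holds no spread between mice. The upper quartile of signal was 400.4 for the control and 410.5 for the L-Lpcat3 KO pool, and the median log2 ratio of the 12290 measured genes was 0.01. Of these genes 51.2% had a ratio above 0, the share beside which counts above or below 0 are to be read. The signal of Lpcat3 was 5173 in the control pool and 2198 in the L-Lpcat3 KO pool. The sources used here do not say whether its probe set overlaps the sequence removed by Cre.

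IGF-binding proteins are secreted proteins that hold IGF1 and IGF2 in the circulation and in tissues and set how much ligand can reach the IGF1 receptor. Hepatocytes make most circulating IGF1 and several of the binding proteins, whereas other members of the family are made mainly by endothelial, stellate and other mesenchymal cells. Insulin acts on hepatocytes through its receptor, whose tyrosine kinase phosphorylates Irs1 and Irs2 to recruit PI 3-kinase and activate Akt. Akt in turn keeps the transcription factor FoxO1 out of the nucleus. Igfbp1 is a classic FoxO1 target in liver that insulin represses within hours, and Irs2 is also repressed by insulin.

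The promoter through which insulin represses Igfbp1 contains an insulin response sequence with the letters CAAAACA. These letters were searched on both strands in the 250 bases before each RefSeq transcription start of the GRCm38.p6 table, as the only motif searched. The table held 10 windows for 9 of the 10 genes, and Insr was not matched. The letters occurred in the windows of Igfbp1, Irs1 and Irs2 and in none of the others, against 5.56% of all 32851 windows. They were taken from the Igfbp1 promoter, so the match there was known beforehand and cannot be set against that share. The windows of these 3 genes are shown because they hold the same letters, with the matches in capitals, 5′ to 3′ on the strand of the gene. The Igfbp1 window lies at chr11:7197537-7197786 on the plus strand, the Irs1 window at chr1:82291440-82291689 and the Irs2 window at chr8:11008930-11009179, both on the minus strand.
Igfbp1: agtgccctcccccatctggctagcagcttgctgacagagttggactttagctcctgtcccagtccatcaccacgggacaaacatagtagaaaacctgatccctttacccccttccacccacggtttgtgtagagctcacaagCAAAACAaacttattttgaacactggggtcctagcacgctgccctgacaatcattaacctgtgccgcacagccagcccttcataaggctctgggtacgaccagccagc
Irs1: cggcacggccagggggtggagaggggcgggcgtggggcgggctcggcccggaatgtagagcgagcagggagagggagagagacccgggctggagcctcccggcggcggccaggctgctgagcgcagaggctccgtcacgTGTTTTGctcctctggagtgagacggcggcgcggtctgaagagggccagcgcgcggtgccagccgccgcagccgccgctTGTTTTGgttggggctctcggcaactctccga
Irs2: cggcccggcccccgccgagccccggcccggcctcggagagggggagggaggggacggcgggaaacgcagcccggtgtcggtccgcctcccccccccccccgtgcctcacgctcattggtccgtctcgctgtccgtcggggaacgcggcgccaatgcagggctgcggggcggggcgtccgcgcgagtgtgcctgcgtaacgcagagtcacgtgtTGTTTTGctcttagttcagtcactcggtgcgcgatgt
The match in Igfbp1 began 108 bases before the start and read in the direction of the gene. Irs1 held 2 matches, beginning 111 and 32 bases before the start, and Irs2 held 1 at 37 bases, all of them on the opposite strand (TGTTTTG as printed). A match is a description of the letters and does not show that a factor binds there.

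On the arrays these 3 genes gave different readings. Igfbp1 had a signal of 2746 in the control pool and 5938 in the L-Lpcat3 KO pool, so the L-Lpcat3 KO pool was 2.16-fold higher (log2 ratio 1.11). Igfbp6 is known only as a lower bound (below) and Irs2 was not measured, so Igfbp1 cannot be ranked among the 10 genes. At this floor 229 of the 12290 measured genes, Igfbp1 included, had a ratio at least as high. The ratio was 3.90 times the pooled SD among probe sets, but it rests on a single probe set. Of the 1188 probe sets within 0.5 log2 units of its mean signal, 0.758% were at least 2-fold higher. Irs1 had a signal of 1493 in the control pool and 1519 in the L-Lpcat3 KO pool (log2 ratio 0.02), less than the spread among probe sets. Irs2 was listed at 61.7 and 78.0, below the floor on both arrays, so it did not count as measured. With the floor at the 25th percentile its log2 ratio was 0.34.

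**Figure D1:**
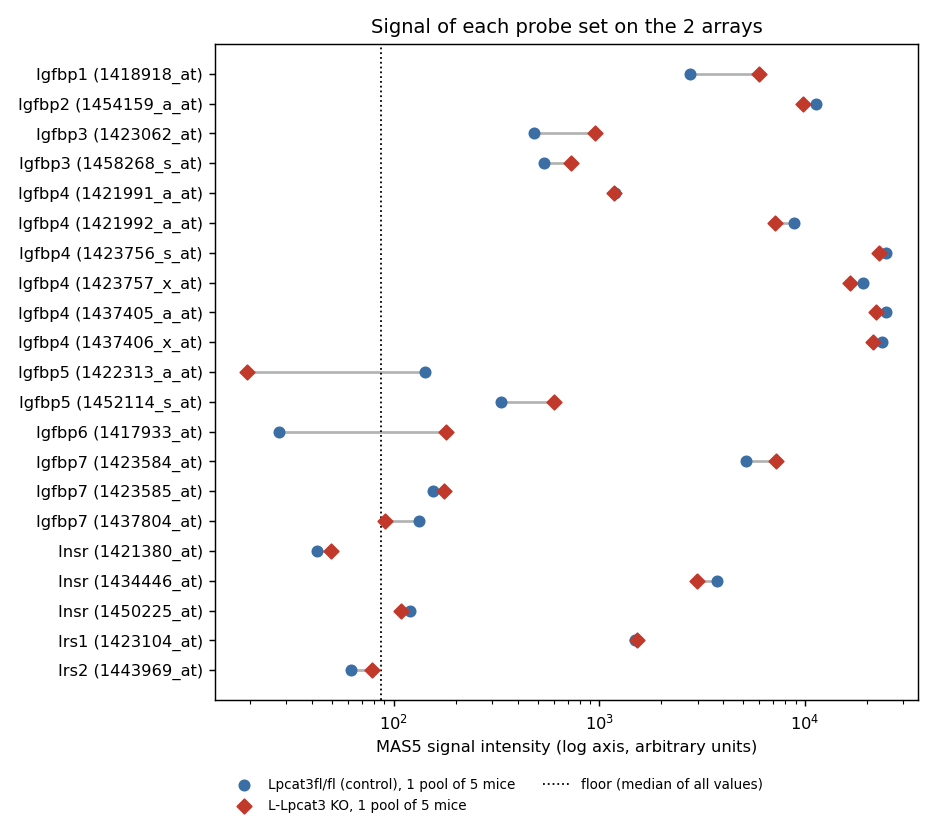
MAS5 signal intensity (log axis, arbitrary units) of each of the 21 probe sets in the control pool (blue circles) and the L-Lpcat3 KO pool (red diamonds); the dotted line is the floor of 86.6. Igfbp1 moves from 2746 to 5938, the Igfbp4 pairs nearly coincide, and Igfbp5 and Igfbp6 each have a probe set that crosses the floor.

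Across the family, 2 of the 9 measured genes, Igfbp1 and Igfbp6, reached a 2-fold higher signal in the L-Lpcat3 KO pool and 0 a 2-fold lower one. Igfbp6 counts as measured only through the L-Lpcat3 KO pool, where it is higher, while Igfbp1 lay above the floor on both arrays. Among all measured genes 2.7% were higher by 2-fold or more and 0.7% lower. Of the 7 Igfbp genes 5 had a ratio above 0 on the probe set of highest signal, against 51.2% of all measured genes. The median log2 ratio of the 7 was 0.87, which is the value of the stronger Igfbp5 probe set. The 2 Igfbp5 probe sets disagree in direction (below). At a threshold of 1.5-fold, 4 of the 7 were higher (Igfbp1, Igfbp3, Igfbp5 and Igfbp6), against 9.07% of all measured genes, and 0 were lower, against 3.83%. Both the 4 and the 5 above 0 include Igfbp5, and also Igfbp6, which was measured only through the L-Lpcat3 KO pool. The median rests on which probe set stands for a gene. With the mean of each gene's measured probe sets the gene median was 0.077, again the value of Igfbp5. Of the 16 Igfbp probe sets 9 had a ratio below 0, 6 of them of Igfbp4 alone, and the median of the 16 was -0.06. Over all measured probe sets with 1 gene symbol, 2.36% were higher by 2-fold or more and 0.791% lower.

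Igfbp3, which carries most circulating IGF in a complex with the acid-labile subunit and is made in liver mainly by non-parenchymal cells, is the neighbour of Igfbp1 on chromosome 11, with 0 protein-coding genes between them in the RefSeq table. The probe set with the higher mean had a signal of 479 in the control pool and 946 in the L-Lpcat3 KO pool, 1.97-fold higher and just under the threshold. Its other probe set had 537 and 728, which is 1.36-fold higher. Both lay above 0, and their log2 ratios of 0.98 and 0.44 differed by 0.54. Igfbp1 and Igfbp3 thus both had the higher signal in the L-Lpcat3 KO pool. They are transcribed from opposite strands, and the letters CAAAACA were not found in the Igfbp3 window.

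Igfbp2 and Igfbp5 are likewise neighbours, on chromosome 1. Igfbp2, an insulin- and leptin-responsive binding protein made by hepatocytes, had a signal of 11311 in the control pool and 9795 in the L-Lpcat3 KO pool (log2 ratio -0.21). This lies within the pooled SD of 0.29. Igfbp5, a binding protein that attaches to extracellular matrix and is expressed by stellate and other mesenchymal cells, gave opposite readings on 2 probe sets. The probe set of higher signal had 330 in the control pool and 604 in the L-Lpcat3 KO pool, 1.83-fold higher. The other had 142 and 19.4, so L-Lpcat3 KO liver was at least 1.64-fold lower. The log2 ratios of 0.87 and at most -0.72 lie at least 1.59 apart. No direction is given for Igfbp5.

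Igfbp4, an inhibitory binding protein that hepatocytes secrete, was read by 6 probe sets, each of a kind that can match several transcripts, of the same gene or of others. The probe set of highest signal had 24619 in the control pool and 22809 in the L-Lpcat3 KO pool (log2 ratio -0.11). The ratios of all 6 lay between -0.31 and -0.0044, so the L-Lpcat3 KO values were 0.809 to 0.997 times control. All 6 were below 0, but at the 4 highest probe sets 239 to 336 probe sets of like signal had medians between -0.12 and -0.10. With quantile normalization the log2 ratio of the probe set of highest signal was 0.0012, so the sign of that probe set turned with the scaling. The other Igfbp4 probe sets stayed below 0 with quantile normalization, from -0.26 to -0.012. With median centring the probe set at -0.0044 turned to 0.0049.

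**Figure D2:**
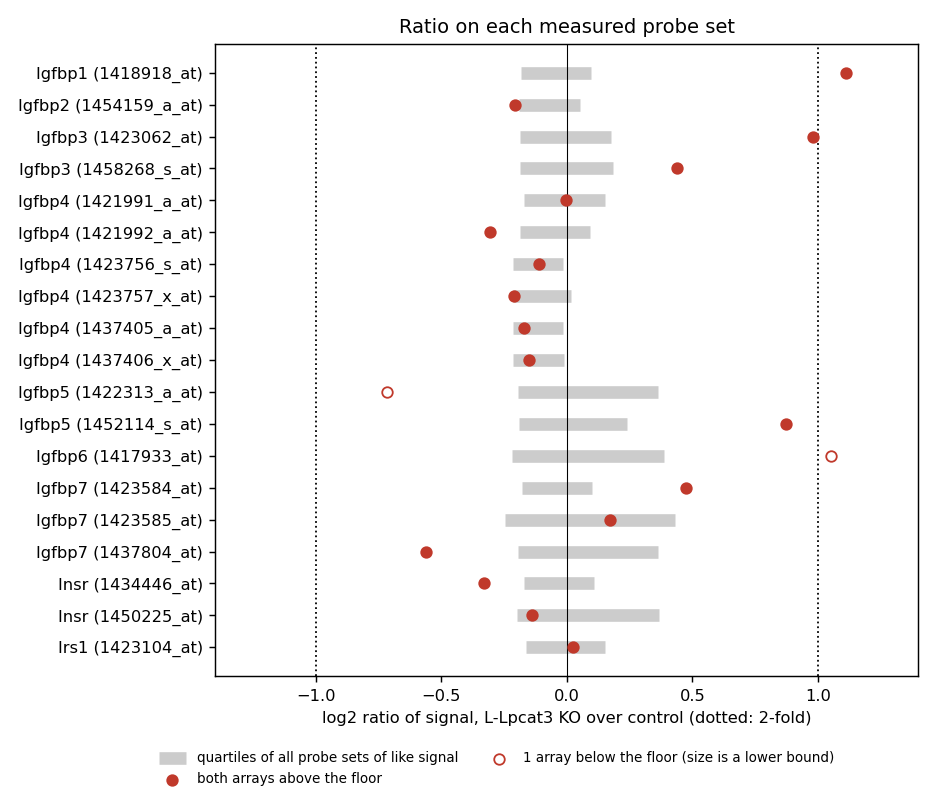
Log2 ratio (L-Lpcat3 KO pool over control pool) of the 19 measured probe sets; filled points have both arrays above the floor, open points have 1 array below it and are lower bounds in size, grey bars span the quartiles of all measured probe sets within 0.5 log2 units of signal, and dotted lines mark 2-fold. Igfbp1 (1.11) and Igfbp6 (at least 1.05) lie past the dotted line, the 6 Igfbp4 points lie close to 0, and the Igfbp5 points lie on opposite sides of it at -0.72 and 0.87.

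Igfbp6, which prefers IGF2 to IGF1 and is expressed by mesothelial and fibroblast-like cells, was listed at 27.5 in the control pool, below the floor, and at 179 in the L-Lpcat3 KO pool. L-Lpcat3 KO liver was at least 2.07-fold higher. Without a floor the log2 ratio was 2.70. The signal was low even in the higher pool, and 3.30% of the 5843 probe sets of like signal were at least 2-fold higher. So close to the floor, the weaker of these probe sets could not reach 2-fold once values were raised to it. That share is therefore no background for Igfbp6. With the floor at the 75th percentile of all values, 405, Igfbp6 was not measured.

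Igfbp7, which binds IGFs weakly and is abundant in vascular endothelium, had a signal of 5185 in the control pool and 7210 in the L-Lpcat3 KO pool on its strongest probe set, 1.39-fold higher. The other probe sets were near the floor. The first was at 155 and 174 (log2 ratio 0.17). The last went the other way, with 133 in the control pool and 90.0 in the L-Lpcat3 KO pool (-0.56). The strongest probe set lay 1.67 pooled SD above 0, while the mean over the 3 was 0.029.

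**Figure D3:**
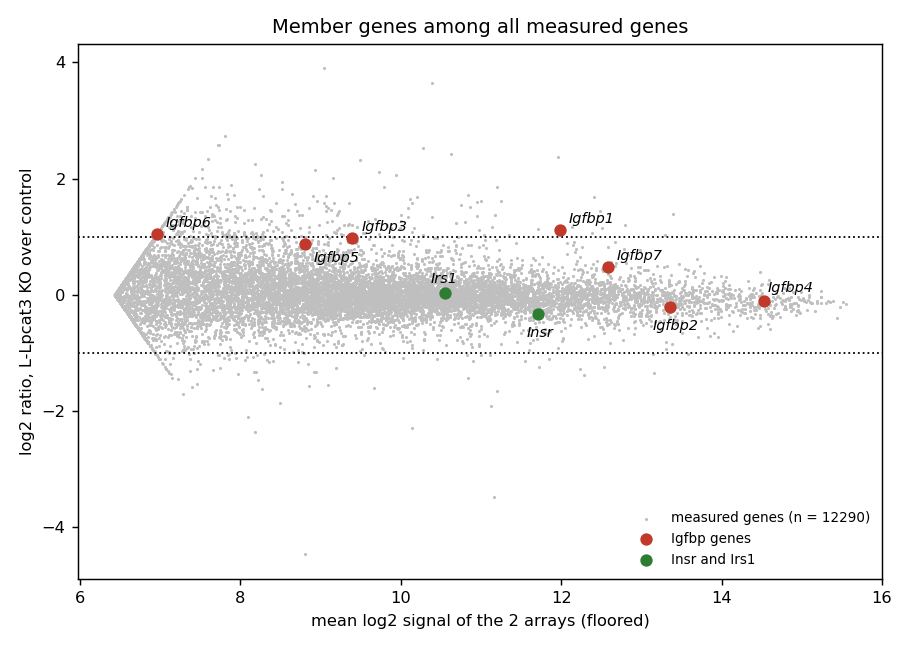
Mean log2 signal of the 2 arrays (x axis, values below the floor raised to it) and log2 ratio of the L-Lpcat3 KO pool to the control pool (y axis) of 12290 measured genes, in grey, with the Igfbp genes in red and Insr and Irs1 in green; dotted lines mark 2-fold. Igfbp1 lies at the upper edge of genes of its signal, Igfbp6 on the edge set by the floor, and Igfbp2, Igfbp4, Insr and Irs1 within the main cloud.

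The receptor end of the pathway showed no 2-fold difference in its 2 measured genes. Among all measured genes 2.7% were higher and 0.7% lower by 2-fold or more, so 2 genes without a call are near these shares. Insr, which encodes the insulin receptor, had a signal of 3749 in the control pool and 2984 in the L-Lpcat3 KO pool on its strongest probe set, which makes control 1.26-fold higher (log2 ratio -0.33). A second probe set was at 120 and 109 (-0.14), and the third lay below the floor at 42.4 and 49.2. Both measured Insr ratios were below 0, and the first lay at -1.15 pooled SD. The 2 measured genes of the receptor and its substrates, Insr and Irs1, had a median log2 ratio of -0.15.

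The ligands were set beside the binding proteins. Igf1, the main circulating ligand of these proteins, had a signal of 15277 in the control pool and 13076 in the L-Lpcat3 KO pool (log2 ratio -0.22), and its 4 probe sets ran from -0.38 to -0.18. Of the 5 measured genes of IGF ligands, receptors and the acid-labile subunit, 0 reached 2-fold and 4 lay below 0, with a median of -0.23. Among all measured genes 2.7% were higher and 0.7% lower by 2-fold or more, shares that also apply to the growth hormone list below. Igf2, the other ligand, is 1 of these 5 and known only as a bound: it was at 130 in the control pool and at 54.1, below the floor, in the L-Lpcat3 KO pool (log2 ratio -0.58 or lower), and without a floor it made 1 gene 2-fold lower. Igfals, the acid-labile subunit that joins Igfbp3 and Igf1 in the circulating complex, was at 1785 and 1179 (-0.60), on a single probe set. Igf1r, the IGF1 receptor gene, was at 143 and 232 (0.70), but 3 Igf1r probe sets were measured, and the lowest ratio among them was -0.38. Igf2, Igfals and Igf1r were chosen after their values were seen. Igf1 and Igfals also belong to the growth hormone and STAT5 genes, of which 0 of 9 were at least 2-fold higher and 1, the repressor gene Bcl6 (-1.61, and -0.42 on its other probe set), was at least 2-fold lower. Their median was -0.36, but -0.059 with only the probe sets specific to 1 transcript. Ghr, the growth hormone receptor gene, was at -0.37.

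Genes of proteins that act on IGF-binding proteins, or share their domain, were mostly above 0, against 51.2% of all measured genes. Htra1 counts in both groups. Of the 3 measured genes for IGFBP proteases and stanniocalcins, all lay above 0, with a median of 0.54. None reached 2-fold at this floor, but Stc1, a stanniocalcin gene chosen after its values were seen, is a lower bound, at 6.14 and 115. Stc1 was measured only through the L-Lpcat3 KO pool, so its place above 0 was fixed by that filter. The count was 1, through Stc1, without a floor, with the floor at the 25th percentile and with log2(value + 100). With the mean of probe sets it was 1 through Htra1, because Stc1 has a single measured probe set and stayed at 0.41. The median was 0.98 without a floor. Htra1, a serine protease that cleaves IGF-binding proteins, was at 191 in the control pool and 376 in the L-Lpcat3 KO pool (0.98), and its other probe set was at least 1.36 higher on the log2 scale. Of 11 measured genes with an IGFBP-type domain outside the family, 2 were at least 2-fold higher and 0 were lower, against 2.7% and 0.7% of all measured genes. Of the 11, 10 lay above 0 and the median was 0.47. The 2 genes at a bound, Ccn3 and Ccn4, were measured only through the L-Lpcat3 KO pool, so their place above 0 was fixed by that filter. Esm1, an endothelial proteoglycan gene, rose from 88.9, next to the floor, to 319 (1.84). Ccn2 (connective tissue growth factor) rose from 307 to 912 (1.57).

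Downstream of the receptor, the genes of PI 3-kinase, Akt, mTOR and FoxO also showed no 2-fold difference on the probe set of highest signal. Of 25 measured genes, 0 were at least 2-fold different, 13 lay above 0 and 12 below, and the median was 0.05. Among all measured genes 2.7% were higher and 0.7% lower by 2-fold or more. A count of 0 in 25, or in the shorter lists below, is near these shares and does not set the genes apart. The ratios ran from -0.62 to 0.39, while all measured probe sets of these genes ran from -0.92 to 1.14, the latter a probe set of Pik3r1, a regulatory subunit chosen after its values were seen. The probe set of highest signal was annotated to Pik3cd, the leukocyte PI 3-kinase subunit, at 19720 and 16201 (-0.28), while the other measured Pik3cd probe set was at 0.43. The 9 measured docking proteins other than Irs1 and Irs2 had a median of 0.12 and 0 calls, with the adaptor gene Shc1 at -0.14. The 13 measured inhibitors of insulin receptor signalling had a median of 0.25 and 0 calls, with the receptor phosphatase gene Ptprf at -0.26.

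Other hepatic genes that insulin or FoxO1 controls had ratios on both sides of 0. Of 9 measured genes 1 was at least 2-fold higher and 0 were lower, beside 2.7% and 0.7% of all measured genes. The median of the 9 was 0.0012. The gene past 2-fold was Pdk4, a kinase that restrains glucose oxidation, with a signal of 657 in the control pool and 1593 in the L-Lpcat3 KO pool (1.28). Apoc3, an inhibitor of lipoprotein lipase and the list member of highest signal, had a ratio of -0.14. Pck1, the gluconeogenic enzyme that insulin represses alongside Igfbp1, was at 17530 and 17721 (0.02). It was chosen after its values were seen.

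**Figure D4:**
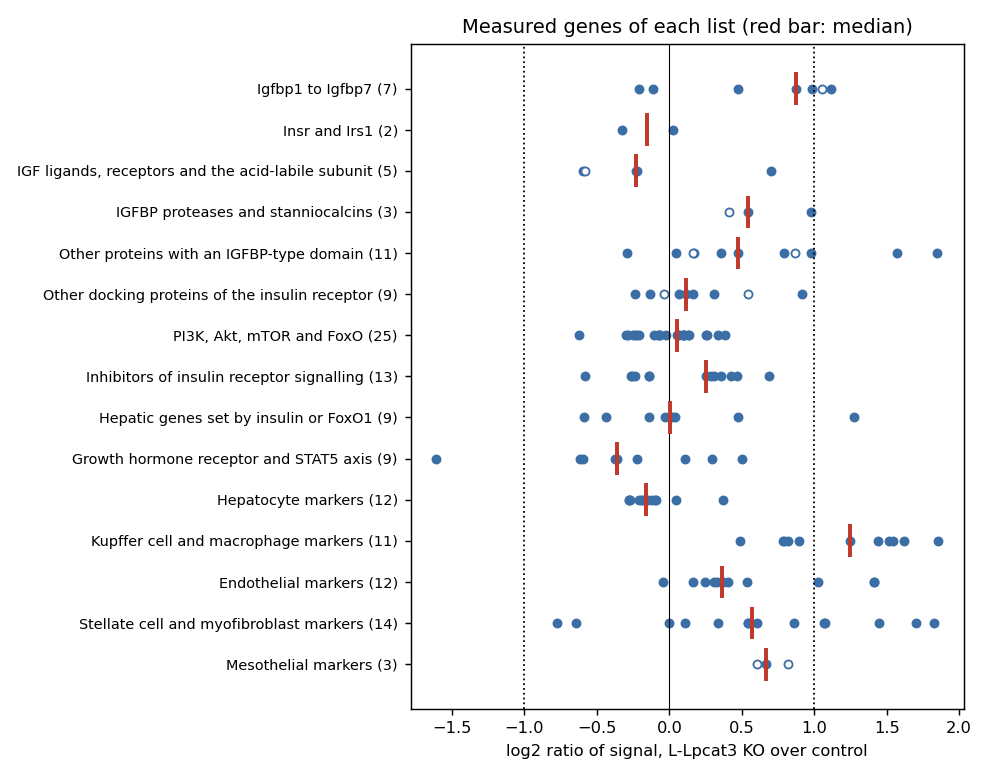
Log2 ratio (L-Lpcat3 KO pool over control pool) of each measured gene of a list, with the number of genes in brackets; red bars are medians, open points have 1 array below the floor and dotted lines mark 2-fold. The Igfbp genes have a median of 0.87, the value of the stronger of 2 Igfbp5 probe sets that disagree in direction. The PI 3-kinase, Akt, mTOR and FoxO genes have a median of 0.05. The marker lists shown run from -0.16 for hepatocytes to 1.24 for macrophages.

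Whole liver holds several cell types that make these proteins, and in pooled tissue RNA a change in the number of cells cannot be told apart from a change in RNA per cell. Of 12 measured hepatocyte markers, 10 lay below 0, 0 were 2-fold different and the median was -0.16; their summed signal was 350995 in the control pool and 321749 in the L-Lpcat3 KO pool. Apoa1, the member of highest signal, was at -0.12. Igfbp2, Igfbp4 and Insr had ratios in the same range as these markers (-0.28 to 0.37) or just below it, and Igfbp1 lay above all 12.

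Many markers of other liver cells were higher in the same pool as Igfbp3, Igfbp5 (on its stronger probe set), Igfbp6 and Igfbp7. Over all measured genes 51.2% lay above 0 and 2.7% were at least 2-fold higher. All 11 Kupffer cell and macrophage markers lay above 0 and 6 were at least 2-fold higher, with a median of 1.24 and a summed signal of 12129 in the control pool and 26865 in the L-Lpcat3 KO pool. They were led by Lyz2 (1.86), C1qb (1.62) and C1qa (1.54), with Csf1r, the member of highest signal, at 0.79. Of 12 endothelial markers 11 lay above 0 and 3 were at least 2-fold higher (Pecam1 and Lyve1, both 1.41, and Vwf, 1.02), with a median of 0.36 and a summed signal of 10479 and 13472. Clec4g, the member of highest signal, was at 0.31, beside 0.48 for Igfbp7. The other Lyve1 probe set was at 0.56, and Pecam1 was near the floor in the control pool, at 96.8. The endothelial count of 3 was 1 with log2(value + 100) or with the floor at the 75th percentile. It was 2 with quantile normalization, with the mean of probe sets or with only specific probe sets. Of 14 stellate cell and myofibroblast markers 11 lay above 0 and 5 were at least 2-fold higher, led by Tagln (1.83), Acta2 (1.70) and Timp1 (1.45), with a median of 0.57 and a summed signal of 21002 and 30935. Dcn was at 0.54. Lum (-0.78) and Hand2 (-0.64), chosen after their values were seen, were lower by 1.5-fold or more. The count of 5 was 3 with log2(value + 100), with the mean of probe sets or with only specific probe sets, and 2 with the floor at the 75th percentile. All 3 measured mesothelial markers lay above 0, with a median of 0.67, but 2 of them were below the floor in the control pool and are bounds. These 2 were measured only through the L-Lpcat3 KO pool, so their place above 0 was fixed by that filter. The third, Upk1b, was at 0.67. The other 3 mesothelial markers, Msln, Wt1 and Lrrn4, were below the floor on both arrays. The part of these cells in the Igfbp ratios was not tested.

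The remaining marker lists were counted in the same way, with genes below the floor in 1 pool entered at their bound. Measured only through the L-Lpcat3 KO pool, and so above 0 by that filter, were 3 B cell, 2 adipocyte, 2 neutrophil and 2 T and NK cell markers. The cholangiocyte marker at a bound, Sox9, was measured only through the control pool. Of 5 measured B cell markers 5 were at least 2-fold higher (median 1.94), of 2 adipocyte markers 2 were (1.60), of 3 neutrophil markers 1 was (0.33), of 2 T and NK cell markers 0 were (0.50), and of 2 cholangiocyte markers 0 were (-0.10). Adipose tissue also expresses several IGF-binding proteins, and both measured adipocyte markers were below the floor in the control pool.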

How the data were processed

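Liver RNA pooled from 5 mice per genotype was measured on 1 array per genotype, with groups taken from the genotype label. Per the labels the authors processed the arrays with MAS5 (version not given in the sources used here), and the methods name GenespringGX; the deposited values are linear signal intensities, scaled to the same trimmed mean on both arrays (2% left out at each end). Such scaling hides any difference shared by most transcripts, and low intensities carry most of the noise. Detection calls were not used here. The number of arrays limits the precision.

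Gene names came from the platform annotation, and older symbols were replaced by way of the gene identifier (RefSeq table, GRCm38.p6). Of 45101 probe sets, 34945 had 1 symbol, 932 had several and 9211 had no name here; the 64 control probe sets stayed out of all gene counts. Log2 ratios were taken after raising values below the median of all values to it. For a gene with several probe sets, that with the highest mean signal (log2) was taken, and the others are given beside it. No test between genotypes was made. The counting step was tested on simulated data.

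The members and the 18 other lists (8 of pathways, 10 of cell type markers) were chosen with earlier results of these data known. Named genes were all members, Lpcat3, Igf1 and, of each list in the figure, up to 3 members past 2-fold and that of highest signal; others are said to be chosen after their values were seen. Listed genes without a probe set with 1 symbol were not analysed here. The alternatives were median centring, quantile normalization, no floor or one at the 25th or the 75th percentile, log2(value + 100), a gene's mean over its measured probe sets, only probe sets specific to 1 transcript by their type, and a 1.5-fold threshold. Promoter sequence came from RefSeq (GRCm38.p6). Calculations used numpy 2.4.6, scipy 1.17.1 and pandas 2.3.3 under Python 3.11.15, and plots matplotlib 3.10.9.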

Additional observations from a re-analysis of the deposited data

How the results depend on the processing

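Igfbp1 was higher by 2-fold or more in the L-Lpcat3 KO pool under each of the 9 alternatives, but most of them could not move its ratio. Its single, specific probe set lay above every floor used, so its log2 ratio stayed at 1.11 under those. Median centring gave 1.12, quantile normalization 1.13 and log2(value + 100) 1.09. The count of genes at least 2-fold higher was 1 with the floor at the 75th percentile, where Igfbp6 was not measured, and 4 at the 1.5-fold threshold, where Igfbp3 and Igfbp5 joined; it was 2 under the other 7, and 0 genes were at least 2-fold lower under any of the 9. The median log2 ratio of the 9 genes was 0.029 with the mean of the measured probe sets; that of the Igfbp genes was then 0.077, and 0.53 with the floor at the 75th percentile. Igfbp5 was at 0.077 and Igfbp7 at 0.029 with the mean of probe sets, and Igfbp5 at 0.58 with the floor at the 75th percentile. Igfbp6 was at 2.70 without a floor or with the floor at the 25th percentile. Of 68 gene values 63 moved by less than the pooled SD, as did 103 of 109 probe set values. Among the other lists 285 of 324 counts stayed within 1.5 times and 124 of 138 medians within the pooled SD. The restriction to probe sets specific to 1 transcript left none for Igfbp2, Igfbp4 and Igfbp5. Over all genes, 332 were higher and 86 lower by 2-fold or more; these counts were 1132 and 479 with the floor at the 25th percentile, 88 and 25 at the 75th, 654 and 242 without a floor, 160 and 33 with log2(value + 100), and 1115 and 471 at 1.5-fold. No paired analysis was possible because each genotype has 1 pool, and for the same reason no array could be left out. Signals near the floor limit Igfbp5, Igfbp6, Irs2 and the weaker probe sets of Igfbp7 and Insr.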
